A study of Mus musculus with 9 samples.

Results

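The perineuronal matrix genes described here are 10 genes of the frontal cortex of Neat1-/- and wild-type (WT) mice: the 4 lecticans Ncan, Bcan, Acan and Vcan, the chondroitin sulfate proteoglycans Ptprz1 and Cspg5, the tenascins Tnr and Tnc, and the link proteins Hapln1 and Hapln4. They were chosen by gene family and not by any measured value, but earlier results of these data were known when they were chosen. They are 10 of the 43629 genes in the deposited count table, and all 10 were among the 19753 that passed the filter on low counts, with 269 to 18365 counts per library. The study compared RNA of 4 Neat1-/- mice, aged 2, 3, 3 and 4 months, with that of 5 WT mice, aged 2, 2, 3, 4 and 4 months. All were female C57BL/6 mice, each library came from frontal cortex gray matter, and RNA was sequenced after removal of ribosomal RNA. The Neat1-/- allele is constitutive and carries lacZ with polyadenylation signals placed shortly after the start of Neat1, so every cell type of these mice carries it. The labels do not say whether the mice of a genotype came from separate litters, and the p-values measure only the spread between these libraries.

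Lecticans are secreted proteoglycans that hold hyaluronan at one end and tenascin-R at the other, and link proteins clamp the lectican to the hyaluronan chain. In the adult cortex this mesh fills the space between cells, and it condenses into perineuronal nets around parvalbumin interneurons. Nets are known to mature after birth, when a juvenile matrix rich in neurocan, versican and tenascin-C gives way to an adult one rich in brevican, aggrecan and tenascin-R, and nets in turn restrain plasticity. Astrocytes, oligodendrocyte progenitors and neurons each make some of these components.

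The library checks touched the matrix genes as follows. Neat1 had 7.38, 7.11, 8.36 and 9.72 CPM (counts per 1000000, scaled with TMM factors) in Neat1-/- mice, against 60.8, 83.2, 119.9, 68.1 and 75.3 CPM in WT mice, and every library matched its label. Deposited counts summed to between 52629603 and 64648856 in Neat1-/- libraries, against 51276067 to 62819932 in WT libraries. WT replicates 3 and 4 stood apart from the other libraries, with 0.234% and 0.212% of their counts in intronic and unconfirmed gene models, against at most 0.136% elsewhere. Ncan, Bcan, Tnc, Ptprz1 and Cspg5 each had their lowest WT value in WT replicate 4, so values without these 2 libraries are also given for results that they moved.

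None of the 10 matrix genes passed an adjusted p of 0.05 between Neat1-/- and WT mice by edgeR, DESeq2 or limma, where 0.0709% of all genes tested passed by edgeR. At a nominal p under 0.05 by edgeR, that is, unadjusted for the number of genes, 1 member (Bcan) was higher and 0 were lower in Neat1-/- mice, while 8.3% of all genes tested were at that threshold, 4.27% higher and 4.03% lower. The median log2 fold change over the 10 members was -0.04, with 4 positive and 6 negative, beside a median of 0.00 over all genes tested. Values of Neat1-/- and WT mice overlapped for each of the 10, and 2.67% of all genes tested had values that did not overlap. For the 9 genes other than Tnc, the 95% intervals of the fold change in the edgeR fit lay between 0.836-fold and 1.14-fold of the WT level. Each interval holds for its gene alone and for this fit. In tissue RNA of this kind, fewer cells of a type and less RNA per cell cannot be told apart.

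**Figure D1:**
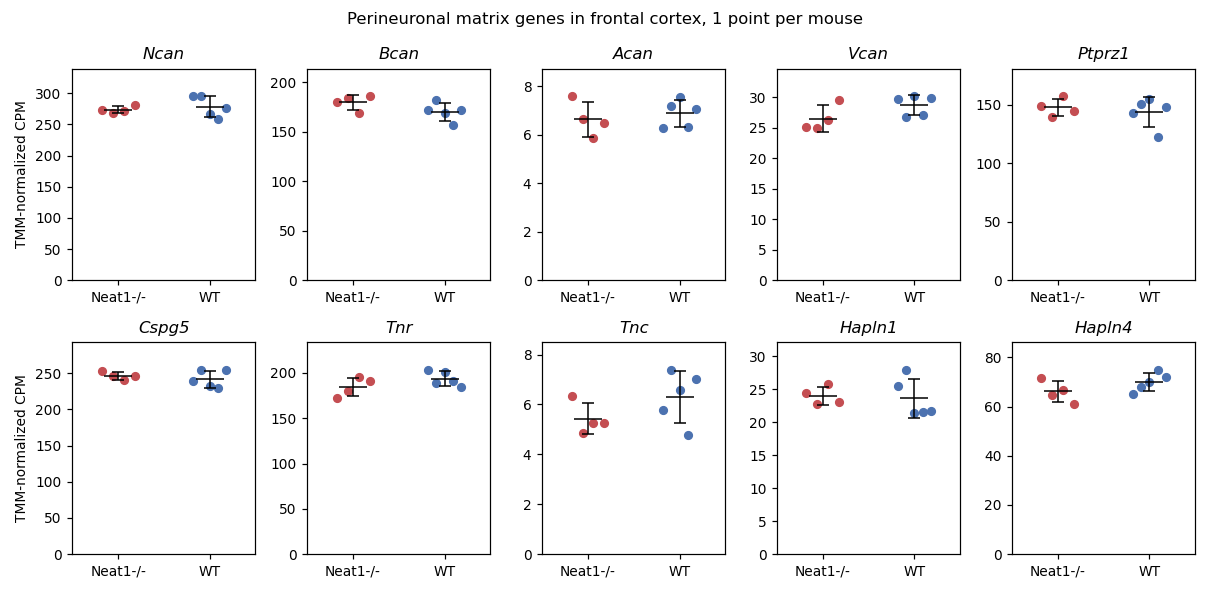
TMM-normalized CPM of the 10 matrix genes (vertical axes, each from 0), 1 point per mouse, Neat1-/- at left and WT at right; horizontal bars are means and error bars the SD (4 Neat1-/- and 5 WT mice). The points of both genotypes overlap in every panel, and Ptprz1 in WT replicate 4 sits lowest in its panel at 123 CPM.

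Ncan encodes neurocan, a lectican that astrocytes and neurons make and that is most abundant in the young brain. It lies on chromosome 8 from 70093085 to 70120873 of GRCm38, on the minus strand. Its level was 274, 268, 271 and 282 CPM in Neat1-/- mice, against 295, 295, 267, 259 and 276 CPM in WT mice. The Neat1-/- values sat inside the WT range, and the spread was wider in WT mice, with a coefficient of variation of 2.18% in Neat1-/- and 5.92% in WT mice. Between genotypes the log2 fold change was -0.02 (SE 0.033, adjusted p = 0.849 by edgeR). Without WT replicates 3 and 4 it was -0.07 at a nominal p of 0.0353, with an adjusted p of 0.66 by edgeR.

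Bcan encodes brevican, a lectican of adult perineuronal nets and perisynaptic matrix, on chromosome 3 from 87987531 to 88000230. It was at 180.2, 184, 169 and 186 CPM in Neat1-/- mice, against 172, 182, 169, 156 and 172 CPM in WT mice. The 3 Neat1-/- mice aged 2 or 3 months were at 180.2 CPM or more, as was WT replicate 2, and the lowest value of all was that of WT replicate 4. Mean levels were 179.7 ± 7.74 CPM in Neat1-/- mice (SD, n = 4) and 170.4 ± 9.22 CPM in WT mice (SD, n = 5). With age in the edgeR model, the log2 fold change was 0.08 (SE 0.035), at a nominal p of 0.0486 and an adjusted p of 0.599. By the exact permutation test of the CPM, which has no age term, p was 0.143 (two-sided, over all splits of the 9 mice). Bcan kept a positive log2 fold change under all 20 alternatives and a nominal p under 0.05 in 6 of them. Without WT replicates 3 and 4 it was 0.05 at a nominal p of 0.22.

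Acan encodes aggrecan, the lectican that neurons of perineuronal nets make and on which net assembly depends. It lies on chromosome 7 from 79053483 to 79115099. Its counts were low for this family, at 7.60, 6.64, 5.87 and 6.48 CPM in Neat1-/- mice, against 6.30, 7.20, 7.56, 6.32 and 7.08 CPM in WT mice. Neat1-/- replicates 1 and 4 held the highest and the lowest of all 9 values. Its log2 fold change was -0.05 (SE 0.096, adjusted p = 0.899 by edgeR).

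Vcan encodes versican, the lectican of loose matrix, progenitors and nodes of Ranvier, on chromosome 13 from 89655312 to 89742509. It was at 25.1, 24.9, 26.3 and 29.6 CPM in Neat1-/- mice, against 29.6, 26.8, 30.2, 27.1 and 29.9 CPM in WT mice. In Neat1-/- mice 3 of 4 values lay under the lowest WT value, and replicate 5, the youngest, lay among the high WT values. The log2 fold change was -0.12 (SE 0.060), at a nominal p of 0.0733 and an adjusted p of 0.63 by edgeR. Its 95% interval ran from 0.842-fold to 1.01-fold. Leaving out WT replicate 2, WT replicate 4 or Neat1-/- replicate 5 took the nominal p under 0.05 (0.0198, 0.0479 and 0.00866), with adjusted p of at least 0.509 by edgeR in these fits.

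Ptprz1 encodes a receptor tyrosine phosphatase of glia whose shed extracellular part is the proteoglycan phosphacan, a ligand of tenascin-R. It lies on chromosome 6 from 22875502 to 23052916. Its level was 149, 139.7, 157 and 145 CPM in Neat1-/- mice, against 143, 150.1, 155, 123 and 148 CPM in WT mice. All values but that of WT replicate 4 lay within 139.7 to 157 CPM. Its log2 fold change was 0.04 (SE 0.060, adjusted p = 0.87 by edgeR), and without WT replicates 3 and 4 it was -0.01.

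Cspg5 encodes neuroglycan C, a membrane-bound chondroitin sulfate proteoglycan of neurons and astrocytes with an EGF-like module, on chromosome 9 from 110243783 to 110262576. It was at 253, 246, 239.8 and 246 CPM in Neat1-/- mice, against 239, 254, 233, 229 and 254 CPM in WT mice. Neat1-/- values were close together, with a coefficient of variation of 2.13%, and WT values ran lower and slightly higher, with one of 4.88%. The log2 fold change was 0.03 (SE 0.038, adjusted p = 0.855 by edgeR), and without WT replicates 3 and 4 it was -0.02.

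Tnr encodes tenascin-R, the trimer that crosslinks lecticans in nets and that oligodendrocyte lineage cells and some interneurons make. It lies on chromosome 1 from 159523769 to 159931729. Its level was 173, 179.8, 195 and 191 CPM in Neat1-/- mice, against 203, 189, 201, 191 and 184 CPM in WT mice. The 2 lowest values were those of the Neat1-/- mice aged 3 months, and the other Neat1-/- mice lay inside the WT range. The log2 fold change was -0.07 (SE 0.043), at a nominal p of 0.136 and an adjusted p of 0.665 by edgeR. Without Neat1-/- replicate 4 it was -0.12 at a nominal p of 0.0143. An antisense gene model, Gm38039, shares 443 bp of exon with Tnr and held 0 CPM.

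Tnc encodes tenascin-C, the tenascin of development, stem cell niches and injury. It lies on chromosome 4 from 63959785 to 64047015. It was the least certain of the 10, at 6.35, 4.88, 5.27 and 5.25 CPM in Neat1-/- mice, against 5.78, 7.38, 6.56, 4.79 and 7.03 CPM in WT mice. In Neat1-/- mice 3 of 4 values lay below all WT values but that of WT replicate 4, which was the lowest of all. The log2 fold change was -0.21 (SE 0.13), with a 95% interval from 0.712-fold to 1.05-fold, at a nominal p of 0.123 and an adjusted p of 0.657 by edgeR. Without WT replicate 4 it was -0.31 at a nominal p of 0.0175, and without WT replicates 3 and 4 it was -0.32 at one of 0.0191, with adjusted p of 0.89 and 0.593 by edgeR. Without WT replicate 5 it was -0.14 at a nominal p of 0.308, and over the 20 alternatives it ran from -0.32 to -0.10.

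Hapln1 encodes a link protein of cartilage and brain matrix, which stabilizes nets, on chromosome 13 from 89539796 to 89611652. It was at 24.4, 22.7, 25.8 and 23.1 CPM in Neat1-/- mice, against 25.5, 27.9, 21.4, 21.5 and 21.7 CPM in WT mice. WT mice split into a high pair aged 2 months and 3 older mice with the lowest values of all. For Hapln1 the log2 fold change was 0.03 (SE 0.074, adjusted p = 0.929 by edgeR), and its sign was kept in 15 of 20 alternatives.

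Hapln4 encodes the brain link protein that holds brevican in nets of the brainstem and cerebellum. It lies on chromosome 8 from 70083457 to 70090862. Its level was 71.6, 64.8, 66.9 and 61.2 CPM in Neat1-/- mice, against 65, 67.9, 69.9, 74.8 and 72 CPM in WT mice. The highest Neat1-/- value, that of replicate 1, stood among the high WT values, and the other 3 lay at or below the middle of the WT range. The log2 fold change was -0.08 (SE 0.040), at a nominal p of 0.0676 and an adjusted p of 0.628 by edgeR. It was negative under all 20 alternatives, with a nominal p under 0.05 in 6, among them 0.00446 without Neat1-/- replicate 1.

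**Figure D2:**
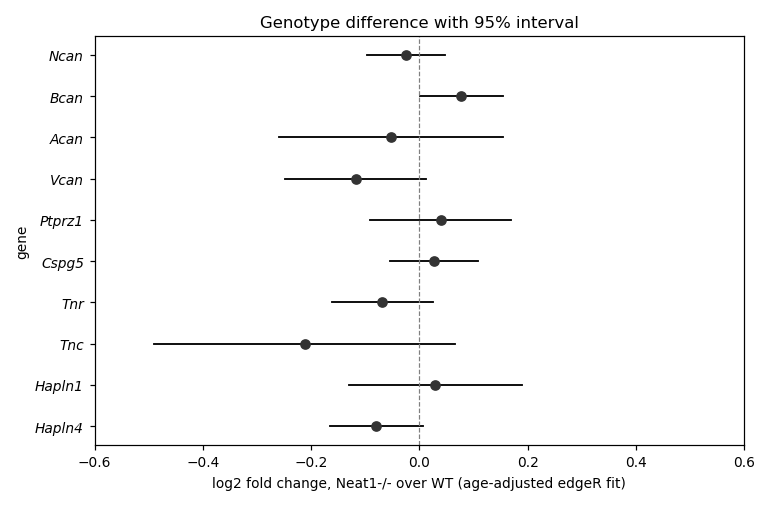
log2 fold change of each matrix gene (Neat1-/- over WT, horizontal axis) from the edgeR model with age; points are estimates and lines the 95% intervals (4 Neat1-/- and 5 WT mice). The lower end of the Bcan interval is at 0.00, every other interval crosses 0, and that of Tnc is the widest, with an estimate of -0.21.

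Of the other genes of these families, Hapln2 averaged 4.77 CPM per kb of exon over the 9 libraries, and Tnxb, Hapln3 and Tnn averaged 0.56, 0.161 and 0.105 CPM per kb. Hapln2, the link protein of nodes of Ranvier and a gene of oligodendrocytes, was at 11.6, 8.42, 9.67 and 11.5 CPM in Neat1-/- mice, against 9.65, 8.84, 13.1, 15 and 14.1 CPM in WT mice (log2 fold change -0.21, unadjusted p = 0.147 by edgeR). Hapln3 was at 0.436 to 0.897 CPM in Neat1-/- mice, against 0.374 to 0.588 CPM in WT mice. Tnxb, the tenascin of connective tissue, was at 5.17 to 8.69 CPM in Neat1-/- mice, against 5.29 to 9.34 CPM in WT mice. Tnn, or tenascin-W, was at 0.202 to 0.522 CPM in Neat1-/- mice, against 2.37 CPM in WT replicate 1 and 0.268 to 0.675 CPM in the other WT mice.

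Link protein genes lie beside lectican genes in the genome, and both partners of each pair could be read in the same libraries. Ncan and Hapln4 end 2222 bp apart and face each other, with no gene between them. Vcan and Hapln1 face each other across 43659 bp, Acan and Hapln3 end 2 bp apart, and Bcan and Hapln2 lie on the same strand, 21519 bp apart. Correlations over mice were computed for the 2 pairs in which both genes are members, and neither passed adjustment. In the 7 libraries other than WT replicates 3 and 4, the correlation over mice between Ncan and Hapln4 was r = -0.17 (exact permutation p = 0.698), with rho = 0.07 (exact permutation p = 0.906) and r = -0.22 without the 2 libraries farthest from the median. Between Vcan and Hapln1 it was r = -0.22 (exact permutation p = 0.638), with rho = -0.14 (exact permutation p = 0.783) and r = -0.02 without the 2 farthest. Each was 1 of 45 pairs of members, and the Benjamini-Hochberg adjusted p of both was 0.966. Over all 9 libraries r was -0.49 for Ncan and Hapln4 (exact permutation p = 0.182) and -0.31 for Vcan and Hapln1 (exact permutation p = 0.404). As deviations from the genotype means, r was -0.67 for Ncan and Hapln4 (permutation p = 0.0476, adjusted p = 0.306). That p is approximate and may be too small, because deviations within a genotype depend on each other and are not freely exchangeable between genotypes.

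Over all 45 pairs of members, 0 correlations passed a Benjamini-Hochberg adjusted p of 0.05 in the 7 libraries, and 1 was at a nominal p under 0.05. That pair was Acan and Cspg5, with r = 0.908 (exact permutation p = 0.00595, adjusted p = 0.268) and rho = 0.821 (exact permutation p = 0.0341), and r = 0.962 without the 2 libraries farthest from the median of Acan. With WT replicates 3 and 4 included, its r was 0.396 (exact permutation p = 0.287), and as deviations from the genotype means 0.485 (approximate permutation p = 0.187). The signs of the 45 depended on these 2 libraries, with 22 positive and 23 negative in the 7 libraries, and 30 positive and 15 negative both over all 9 and as deviations. At a nominal p under 0.05 there were 4 pairs over all 9 libraries and 7 as deviations, of which 0 passed adjustment. The p values of the deviations are approximate and may be too small.

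Levels of different genes were compared per kb of exon, as CPM divided by the length of all annotated exons of the gene. Brevican and neurocan led, with Bcan at 42.9 and Ncan at 38.4 CPM per kb over the 9 libraries, followed by Cspg5 at 24.2, Hapln4 at 17.4, Tnr at 14.7 and Ptprz1 at 10.2 CPM per kb. Hapln1 was at 4.03, Vcan at 1.92, Acan at 0.908 and Tnc at 0.762 CPM per kb. The order was the same in each of the 9 libraries, although the ranges over libraries overlapped between Bcan and Ncan, between Hapln4 and Tnr and between Acan and Tnc. With the length of the longest transcript in place of all exons, Ptprz1 at 18 CPM per kb stood above Tnr at 15.5 CPM per kb, and no other place in the order changed. Aggrecan, the lectican that defines nets histologically, was thus the lowest of its family per kb in whole cortex RNA.

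**Figure D3:**
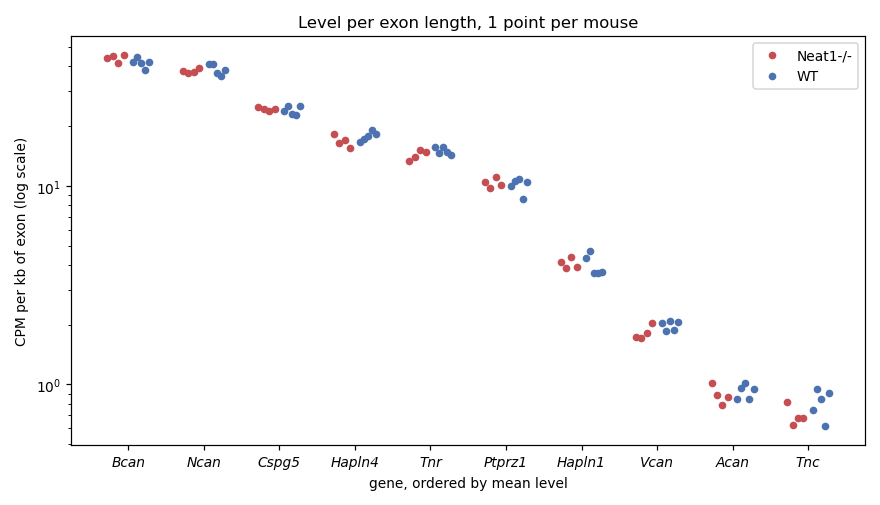
CPM per kb of exon (vertical log axis) of the 10 matrix genes in order of their mean, 1 point per mouse, Neat1-/- at left and WT at right within each gene. Levels run from 42.9 CPM per kb for Bcan to 0.762 for Tnc, and both genotypes keep this order.

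Within the lecticans, Bcan made up 52.0 ± 1.02% of the summed level per kb in Neat1-/- mice (SD, n = 4) and 50.2 ± 0.731% in WT mice (SD, n = 5). Ncan took 44.8 ± 0.982% in Neat1-/- mice and 46.3 ± 0.849% in WT mice, Vcan 2.15 ± 0.15% in Neat1-/- mice and 2.38 ± 0.176% in WT mice, and Acan 1.05 ± 0.105% in Neat1-/- mice and 1.11 ± 0.0922% in WT mice. Tnr took 95.3 ± 0.713% of the sum of Tnr and Tnc in Neat1-/- mice and 94.9 ± 0.899% in WT mice, with Tnxb and Tnn not counted. Hapln4 took 80.6 ± 0.929% of the pair of link proteins in Neat1-/- mice and 81.6 ± 2.51% in WT mice. The 10 genes together summed to 155.7 ± 1.88 CPM per kb in Neat1-/- mice and 155.3 ± 5.69 CPM per kb in WT mice.

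Ratios of 2 genes within a library do not depend on the scaling between libraries, and 5 were set between members of the same family: the lecticans Bcan, Ncan and Acan each over Vcan, Tnr over Tnc and Hapln4 over Hapln1. The log2 ratio of Bcan to Vcan was 4.68, 4.72, 4.51 and 4.48 in Neat1-/- mice, against 4.37, 4.599, 4.32, 4.36 and 4.35 in WT mice. All Neat1-/- values lay above 4 of the 5 WT values, and WT replicate 2 lay between the Neat1-/- mice. The means differed by 0.20 (two-sided exact permutation p = 0.0317), which did not pass after Benjamini-Hochberg adjustment over the 5 ratios (adjusted p = 0.159). Leaving out WT replicate 2 or Neat1-/- replicate 4 or 5 kept the exact p under 0.05, and leaving out any other mouse did not.

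The other 4 ratios did not pass the exact test, and their genotypes overlapped. The Ncan to Vcan ratio was 4.38 ± 0.0892 on the log2 scale in Neat1-/- mice (SD, n = 4) and 4.29 ± 0.121 in WT mice (SD, n = 5), a difference of 0.09 (exact permutation p = 0.222). The Acan to Vcan ratio was -1.04 ± 0.224 in Neat1-/- mice and -1.11 ± 0.126 in WT mice (difference 0.06, exact permutation p = 0.603). The Tnr to Tnc ratio was 4.36 ± 0.217 in Neat1-/- mice and 4.23 ± 0.273 in WT mice (difference 0.14, exact permutation p = 0.437). The Hapln4 to Hapln1 ratio was 2.05 ± 0.0857 in Neat1-/- mice and 2.16 ± 0.238 in WT mice (difference -0.11, exact permutation p = 0.397). It was 0.01 without WT replicates 3 and 4. Benjamini-Hochberg adjusted p values of these 4 were 0.546 to 0.603.

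**Figure D4:**
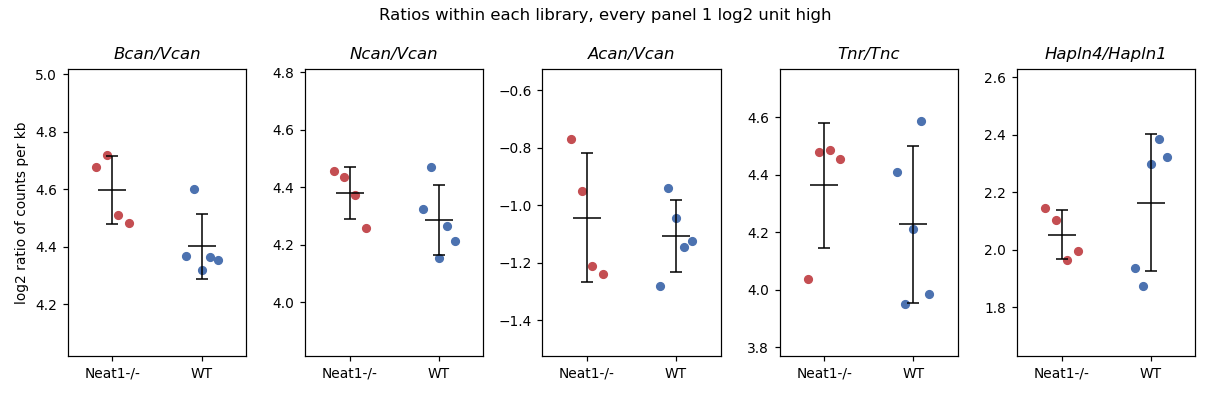
log2 ratio of counts per kb of 2 matrix genes within each library (vertical axes, each 1 log2 unit high), 1 point per mouse, Neat1-/- at left and WT at right; horizontal bars are means and error bars the SD. In the Bcan to Vcan panel the Neat1-/- points lie from 4.48 to 4.72 and the WT points from 4.32 to 4.599.

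Age, which ran from 2 to 4 months and was a term of the model, was tested on the same 10 genes. None passed an adjusted p of 0.05 by edgeR, where 0.0% of all genes tested passed, and at a nominal p under 0.05 Hapln4 was higher with age and Ncan and Bcan were lower, while 5.98% of all genes tested were at that threshold, 2.86% higher and 3.12% lower. Ncan averaged 291 ± 7.83 CPM at 2 months, 269 ± 3.70 CPM at 3 months and 269 ± 9.12 CPM at 4 months (SD, n = 3 mice at each age, both genotypes pooled). Bcan averaged 180 ± 7.41, 178 ± 7.63 and 166 ± 8.18 CPM at these ages. Hapln4 averaged 64.7 ± 3.37, 68.8 ± 3.53 and 71.3 ± 4.01 CPM. The values of neighbouring ages overlapped for Bcan and Hapln4, while for Ncan the mice aged 2 months lay above those aged 3 months and those of 3 and 4 months overlapped.

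By month of age the log2 change was -0.06 for Ncan (SE 0.020, unadjusted p = 0.0152), -0.06 for Bcan (SE 0.022, unadjusted p = 0.0167) and 0.07 for Hapln4 (SE 0.024, unadjusted p = 0.0136), each with an adjusted p of 0.82 by edgeR. Hapln1 had a log2 change of -0.08 per month (unadjusted p = 0.113), and the other 6 had nominal p values of 0.495 to 0.662. Leaving out WT replicate 4 took the p of Ncan to 0.0821 and that of Bcan to 0.104. The p of Ncan was also past 0.05 without WT replicate 1 (0.0577), that of Bcan without WT replicate 2 (0.0604) or Neat1-/- replicate 4 (0.0755), and that of Hapln4 without WT replicate 1 (0.0514) or Neat1-/- replicate 5 (0.0649). Without WT replicates 3 and 4 the p was 0.0510 for Ncan and 0.0836 for Bcan.

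**Figure D5:**
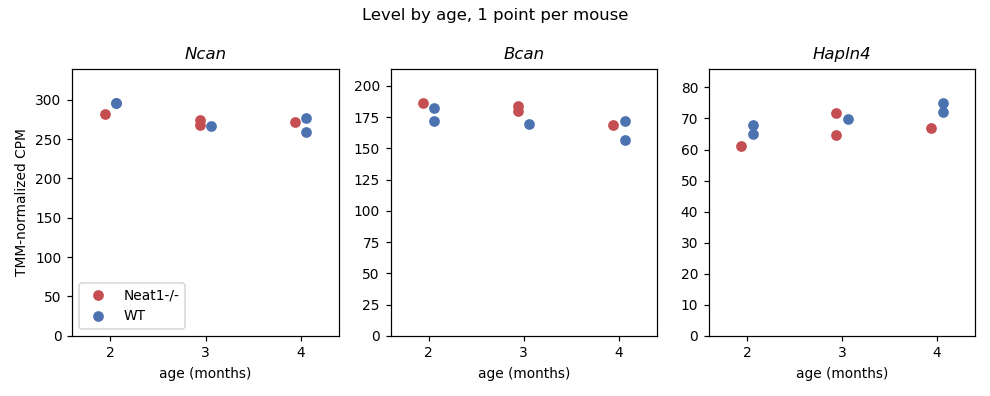
TMM-normalized CPM (vertical axes, from 0) of Ncan, Bcan and Hapln4 by age in months, 1 point per mouse, Neat1-/- drawn left of WT at each age. Ncan is highest at 2 months, with a mean of 291 CPM, and Hapln4 is highest at 4 months, with a mean of 71.3 CPM.

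Genes that build the chondroitin sulfate chains which the lecticans carry were counted next. Of 25 tested, 3 were higher and 0 lower in Neat1-/- mice at a nominal p under 0.05, 0 passed an adjusted p of 0.05 by edgeR or limma, DESeq2 called 1, and the median log2 fold change was -0.02. Slc26a2, the transporter that brings sulfate into cells for sulfation, was at 21.0 ± 1.81 CPM in Neat1-/- mice (SD, n = 4) and 16.4 ± 2.82 CPM in WT mice (SD, n = 5), a log2 fold change of 0.36 (unadjusted p = 0.00097, adjusted p = 0.319 by edgeR). Chst15, which adds a second sulfate group to the chain, had a log2 fold change of 0.09, and Chpf2, a chain polymerizing factor, one of 0.08, at nominal p of 0.0419 and 0.049. Of the 25, 1 was higher and 2 were lower without WT replicates 3 and 4.

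Hyaluronan, the backbone that lecticans and link proteins bind, is made by Has enzymes and cut by hyaluronidases. Of 12 genes of hyaluronan synthesis and turnover, 0 were higher and 1 was lower at a nominal p under 0.05 (Stab2, a scavenger receptor, at 0.814 ± 0.0712 CPM in Neat1-/- mice and 1.22 ± 0.309 CPM in WT mice), with a median of 0.00. Without WT replicates 3 and 4, 0 were higher and 0 lower. Of 21 proteases and inhibitors that trim the matrix, 0 were higher and 0 lower, with a median of -0.03. Among them, Htra1, a secreted serine protease, was at 130.2 ± 4.22 CPM in Neat1-/- mice and 127 ± 10.6 CPM in WT mice, and Serpine2, an inhibitor of serine proteases, at 110.5 ± 5.18 CPM in Neat1-/- mice and 113 ± 7.56 CPM in WT mice. In both lists 0 passed an adjusted p of 0.05 by edgeR, DESeq2 or limma.

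Receptors and ligands of the perineuronal matrix numbered 31, of which 1 was higher and 4 were lower at a nominal p under 0.05, with 0 called by edgeR or limma, 1 called by DESeq2 and a median of 0.00. Nfasc, the neurofascin cell adhesion molecule of axon initial segments and nodes, was at 189 ± 9.66 CPM in Neat1-/- mice and 221 ± 18.2 CPM in WT mice, a log2 fold change of -0.23 (unadjusted p = 0.000964, adjusted p = 0.319 by edgeR). Ptprf, a receptor phosphatase of the LAR family, to which chondroitin sulfate receptors belong, had a log2 fold change of -0.12 (unadjusted p = 0.00952). Of the same family, Ptprs, the 1 gene of the list that was higher, had a log2 fold change of 0.07 (unadjusted p = 0.0497 by edgeR). That of Ptprd was -0.03 (unadjusted p = 0.521 by edgeR). Otx2, a homeoprotein that nets take up from choroid plexus, was at 0.118 ± 0.079 CPM in Neat1-/- mice and 0.322 ± 0.273 CPM in WT mice, and the summed choroid plexus and ependymal markers were highest in WT replicate 3.

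Of 39 other proteoglycans and matrix proteins of brain, 3 were higher and 1 was lower at a nominal p under 0.05, 0 were called by edgeR, DESeq2 or limma, and the median was 0.02. The glypicans Gpc5 and Gpc6 had log2 fold changes of 0.12 and -0.23 (unadjusted p = 0.0079 and 0.0196 by edgeR), and Sparcl1, the abundant astrocyte protein hevin, was at 2199 ± 36.7 CPM in Neat1-/- mice and 2101 ± 66.6 CPM in WT mice. Without WT replicates 3 and 4, 1 was higher and 6 were lower, with a median of -0.03.

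Markers of the cells that make the matrix were read in the same libraries. The list of 12 parvalbumin interneuron markers also held general markers of GABAergic neurons, with Gad1 averaging 334 CPM and Pvalb 57.7 CPM. Its sum, which therefore did not read parvalbumin cells alone, was 1119 to 1163 CPM in Neat1-/- mice, against 1081 to 1151 CPM in WT mice. Of the 12, 1 was higher (Tac1) and 0 lower at a nominal p under 0.05, or 2 higher without WT replicates 3 and 4. For 13 astrocyte markers the sum was 5646 to 5695 CPM in Neat1-/- mice, against 5111 to 5856 CPM in WT mice, with 1 higher (Fgfr3) and 0 lower and a median log2 fold change of 0.04, or 2 higher and 1 lower with a median of -0.03 without WT replicates 3 and 4. The lowest astrocyte sum was that of WT replicate 4, where Ncan, Bcan, Tnc, Ptprz1 and Cspg5 also had their lowest values. For 11 markers of oligodendrocyte progenitors, which make several members, it was 246 to 261 CPM in Neat1-/- mice, against 259 to 291 CPM in WT mice, with 0 higher and 3 lower (Olig1, Olig2 and Gpr17), or 5 lower either without WT replicates 3 and 4 or by library size alone. This list held Olig2 and Sox10, which the paper treats as markers of progenitors and oligodendrocytes alike, so it did not read progenitors alone. Of the 11 log2 fold changes, 10 were negative and 1 positive (Rlbp1, 0.08), with a median of -0.12. That of Pdgfra was -0.01 (unadjusted p = 0.899 by edgeR). The 12 markers of mature oligodendrocytes summed to 2028 to 3093 CPM in Neat1-/- mice, against 2384 to 3751 CPM in WT mice, with 0 higher and 6 lower, against 3 lower without WT replicates 3 and 4, 1 lower by DESeq2 and 1 lower by limma. Over all 19753 genes tested, 4.03% were lower by edgeR at that threshold, 792 genes were lower by DESeq2 and 868 by limma. All 12 had negative log2 fold changes, with a median of -0.27 by edgeR, -0.27 by DESeq2 and -0.22 by limma. None of these lists held a marker at 0 in every library, and their part in the values of the matrix genes was not tested.

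Markers of further cell types were summed in the same way, and these sums do not measure amounts of tissue. The 12 excitatory neuron markers summed to 2719 to 2866 CPM in Neat1-/- mice, against 2620 to 2887 CPM in WT mice, and among them 3 were higher and 0 lower at a nominal p under 0.05, among 11 microglial markers 5 and 0 (1 and 0 without WT replicates 3 and 4), and among 11 endothelial and mural markers 2 and 0 (1 and 1 without them, with a median of -0.07 in place of 0.01). The 10 meningeal fibroblast markers summed to 125.7 to 174 CPM in Neat1-/- mice, against 54.0 to 296 CPM in WT mice, with the lowest sum in WT replicate 4. Of these, 1 was higher and 0 lower, with a median of -0.04, whereas without WT replicates 3 and 4 they were 0 higher and 5 lower, with a median of -0.28. Choroid plexus and ependymal markers, 10 in number, summed to 19.3 to 30.8 CPM in Neat1-/- mice, against 122 CPM in WT replicate 3 and 25.9 to 29.8 CPM in the other WT mice. Of the 9 that were tested, 0 were higher and 1 was lower, with a median of -0.39, or -0.09 without WT replicates 3 and 4. The 1 lower gene was Otx2, which was also counted among the receptors and ligands. None of the markers in these 9 cell type lists was called by edgeR or limma. DESeq2 called 2 of the progenitor markers, where it called 76 of all 19753 genes tested. The part of these cell types in the values of the matrix genes was not tested.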

How the data were processed

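Frontal cortex RNA of 4 Neat1-/- and 5 WT mice was sequenced by the authors. The authors deposited a table of raw counts by Ensembl ID and a table of normalized log2 values for 13456 of the genes. The submitters' processing notes name STAR 2.5.0, HTSeq 0.8.0 and mm10, while the supplementary methods name other versions and TopHat, and no source states whether counting used strand. The 10 members and all lists were chosen with earlier results of these data known.

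Names and exon lengths came from GENCODE vM21 (GRCm38, the build of mm10), which named 97.5% of IDs. The deposited counts of 43629 genes were filtered with filterByExpr by genotype, which kept 19753, and scaled by TMM. The quasi-likelihood test of edgeR 4.0.16 in R 4.3.3 was fitted with terms for genotype and age in months, and p values were adjusted by Benjamini-Hochberg over all genes tested. The common biological coefficient of variation was 0.0922. Intervals are 95%. Single genes and log2 ratios were compared by two-sided exact permutation tests over all splits of the 9 mice, whose smallest p is 0.00794. The test was checked on simulated data. With the replicate number as a block, the exact permutation test of ratios flipped signs within same-numbered pairs, and its smallest p is 0.125.

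The text names the 10 members, Neat1, Hapln2, Hapln3, Tnxb and Tnn. Of each matrix list it names up to 3 genes with the smallest nominal p under 0.05 or else the 2 with the highest level. Tac1, Fgfr3, Olig1, Olig2 and Gpr17 follow the same rule. Ptprs and Ptprd are named beside Ptprf as genes of its family, and Gad1 and Pvalb to show what the parvalbumin list held. Sox10, Rlbp1 and Pdgfra are named to show what the progenitor list held. Alternatives were DESeq2 1.42.0, limma 3.58.1 (voomWithQualityWeights), other size factors, filters and age terms, each library left out, a block by replicate number, WT replicates 3 and 4 left out, and the deposited log2 values. Other analyses used Python 3.11.15, pandas 2.3.3 and SciPy 1.17.1.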

Additional observations from a re-analysis of the deposited data

Results flagged for a closer look

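Among 30 groups of values checked for a sample far from the others (each member and each ratio in each genotype), 2 held such a sample, where chance gives about 1 in 20 groups. The log2 ratio of Bcan to Vcan in WT replicate 2 was 4.599, above the 4.32 to 4.37 of the other WT mice. The log2 ratio of Tnr to Tnc in Neat1-/- replicate 1 was 4.04, below the 4.45 to 4.48 of the other Neat1-/- mice.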

How the results depend on the processing

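No member was called under any of the 20 alternatives, the lowest adjusted p being 0.189 for Tnc with limma on the deposited normalized values. Ncan, Bcan, Vcan, Tnr, Tnc and Hapln4 kept the sign of their log2 fold change in all 20. Members at a nominal p under 0.05 were 0 higher and 0 lower with DESeq2 size factors in edgeR and with no age term, 0 higher and 1 lower by library size alone, with a minimum of 1 CPM in 4 libraries and with age as a factor, 0 higher and 2 lower without WT replicates 3 and 4 and with the deposited values, and 0 to 1 higher and 0 to 2 lower with each library left out. Over all genes tested, called genes numbered 14, against 76 with DESeq2, 22 with limma, 76 with no filter, 183 with the deposited values and 8 (without Neat1-/- replicate 1) to 30 (without WT replicate 5) with each library left out; at a nominal p under 0.05, 1338 were higher with the deposited values, 1353 lower with no filter, and 469 to 1200 higher and 539 to 1679 lower with each library left out. The higher and lower counts were 843 and 796, or 648 and 947 by library size alone. The deposited values were fitted by limma with no age term. In that fit Tnc had a log2 fold change of -0.32 and Ncan one of -0.05, at nominal p of 0.0181 and 0.0363 by limma. The cause of these changes was not tested.

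The labels do not say whether the replicate numbers pair the mice. Same-numbered mice had correlations of their deviations of 0.044, -0.045, 0.137 and -0.077, and differently numbered mice had -0.115 to 0.105. So few pairs cannot settle whether the mice were paired. For ratios, the block was tested by an exact permutation test that flipped signs within same-numbered pairs, which left out WT replicate 2. The smallest p which that exact permutation test can give is 0.125. In every same-numbered pair the Neat1-/- mouse had the higher Bcan to Vcan ratio. The block p of that ratio is thus at its floor and cannot show whether the difference was weaker. With the replicate number as a block, 12 genes were called, 1 member was higher (Bcan, 0.10) and 1 lower (Vcan, -0.16) at a nominal p under 0.05, Tnc had a log2 fold change of -0.10 (nominal p = 0.441 by edgeR, beside an adjusted p of 0.833), and the Bcan to Vcan ratio differed by 0.25 (exact permutation p = 0.125).

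The Bcan to Vcan difference was 0.157 (exact permutation p = 0.171) without WT replicates 3 and 4, and 0.156 to 0.246 with each library left out. Acan to Vcan ran from -0.0279 to 0.129 with each left out, and Hapln4 to Hapln1 was 0.00848 without WT replicates 3 and 4. The genotype log2 fold change of Hapln1 was -0.00543 with limma, -0.00657 with the deposited values, -0.0422 without WT replicates 3 and 4 and -0.0535 to 0.0842 with each left out. That of Cspg5 was -0.0186 with the deposited values and -0.0204 without WT replicates 3 and 4, that of Ptprz1 was -0.00835 without them and -0.029 to 0.0631 with each left out, and that of Acan ran from -0.129 to 0.00402. The age change per month ran from -0.0658 to 0.0171 for Acan, -0.0567 to 0.0176 for Vcan, -0.118 to 0.0288 for Tnc, -0.0466 to 0.037 for Ptprz1 and -0.0402 to 0.00219 for Cspg5 with each left out, and without WT replicates 3 and 4 it was 0.0306 for Tnc, 0.0329 for Ptprz1 and 0.00653 for Cspg5.

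Correlations that changed sign from the 9 libraries when WT replicates 3 and 4 were left out were -0.000115 for Ncan and Bcan, -0.0762 for Ncan and Ptprz1, -0.0196 for Ncan and Cspg5, -0.118 for Bcan and Tnc, -0.113 for Bcan and Hapln1, -0.507 for Bcan and Ptprz1, -0.216 for Acan and Vcan, -0.129 for Acan and Ptprz1, -0.109 for Vcan and Ptprz1, -0.18 for Hapln1 and Cspg5, 0.424 for Hapln4 and Ptprz1 and 0.593 for Hapln4 and Cspg5. As deviations from the genotype means, Bcan and Vcan had 0.136 and Acan and Vcan -0.103. None of these passed adjustment over 45 pairs.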
